A study of Mus musculus with 6 samples.

Results

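The ectodysplasin pathway genes and the skin appendage transcription factors were followed in mammary tumors and normal mammary glands of BK5.ATF3 mice. The genes were chosen by name and are *Eda*, *Edar*, *Edaradd*, *Eda2r*, *Foxn1*, *Dlx3*, *Msx1*, *Msx2* and *Tbx3*. Of these 9 genes, 8 were among the 15280 genes of the expression table, and *Msx1* was not analysed here. The RNA-Seq libraries came from 3 parous female BK5.ATF3 transgenic mice, in which the keratin 5 promoter drives ATF3, a stress-induced transcription factor, in basal epithelial cells. From each mouse, 1 mammary tumor (libraries T11035, T11640 and T9232) and the adjacent normal gland (M11035, M11640 and M9232) were sequenced, so n = 3 for each tissue. Both tissues carried the transgene, so no library stands for a wild-type gland. The females had raised 1 litter each, tumors of these mice mostly arose at an age of 6 to 12 months, and a mouse was killed when the tumor reached 1.5 cm in length.

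Ectodysplasin is a ligand of the TNF family that epithelial cells use to set up hair follicles, teeth, sweat glands and mammary glands in the embryo. One splice form binds the receptor EDAR, which recruits the adaptor EDARADD and passes the signal through TRAF proteins and the IKK complex to the transcription factor NF-κB. Another splice form, shorter by a pair of amino acids, binds the receptor EDA2R, which does not use EDARADD. Gene-level values do not separate these splice forms. The transcription factors act in the same organs: TBX3 is needed for the mammary bud, MSX2 for mammary gland and hair growth, DLX3 for the hair follicle and epidermal differentiation, and FOXN1 for hair shaft keratinization and the thymus. Loss of *EDA*, *EDAR* or *EDARADD* function in humans causes hypohidrotic ectodermal dysplasia.

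The libraries held 4750989 to 7806908 fragments on genes, and 3 fragments, taken as the floor of detection, corresponded to between 0.393 and 0.610 CPM. *Atf3* had 4.47, 8.09 and 22.6 CPM in M11035, M11640 and M9232 and 13.4, 18.3 and 19.3 CPM in the tumors of the same mice, with an adjusted p of 0.223 (limma). Whether fragments of the transgene fall on this gene is not given in the sources used here. The tissues differed in makeup, as the summed CPM of marker lists showed. Markers of adipocytes, which fill most of a normal gland, summed to between 6339 and 11813 CPM in the glands and to between 253 and 407 CPM in the tumors, and 8 of 8 fell. Epithelial markers summed to between 214 and 475 CPM in the glands and between 1980 and 2624 CPM in the tumors, and 6 of 8 rose. Of these, *Krt5* rose from 24.6 ± 13.3 to 986 ± 71.1 CPM and *Krt14*, the other keratin of basal cells, from 11.5 ± 7.32 to 585 ± 129 CPM. *Epcam* had 151 ± 65.7 CPM in the glands and 211 ± 15.4 CPM in the tumors (adjusted p = 0.124, limma). *Cldn7* had 2.09 ± 1.39 and 3.47 ± 0.526 CPM (adjusted p = 0.165, limma). *Epcam* and *Cldn7* were not among the 6 and are named after their values were seen. Squamous markers rose in 8 of 8 cases, from sums of 13.8 to 15.9 CPM to sums of 2271 to 3690 CPM, and *Lor* was at 0 in the glands. The glands alone had 10 fragments for 5 of these 8 markers. Skeletal muscle markers summed to 3785 CPM in M11035 and 1487 CPM in M11640, against 12.2 CPM in M9232 and 9.96 to 19.0 CPM in the tumors. In such bulk samples, fewer cells of a type and less RNA per cell cannot be told apart.

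Tumors were compared with glands by the two-sided test of limma, with CPM on a log2 scale after adding 0.5, and p was adjusted by Benjamini and Hochberg over the 15280 genes. A called gene had an adjusted p no higher than 0.05 and a log2 fold change of at least 1 in size. *Edar*, *Edaradd*, *Eda2r*, *Foxn1*, *Dlx3*, *Msx2* and *Tbx3* rose in the tumors, and *Eda*, the ligand, fell. Among all genes, 14.5% were called higher in tumors, 13.7% lower and 28.2% either way. In each of the 8 genes, the 3 tumor values lay on 1 side of the 3 gland values, as they did in 54.0% of all genes (27.6% with the tumors above and 26.3% with the tumors below), and each of the 3 mice had a difference in the same direction. The authors removed genes with fewer than 10 fragments over the 6 libraries. *Foxn1* and *Dlx3* passed this limit only with the fragments of the tumors. *Foxn1*, at 0 in the glands, could not have been seen without a rise, and for *Dlx3* the limit favored one. The smallest p that an exact two-sided permutation test can give with 3 libraries against 3 is 0.1, and the calls therefore depend on the spread that limma shares across genes.

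**Figure D1:**
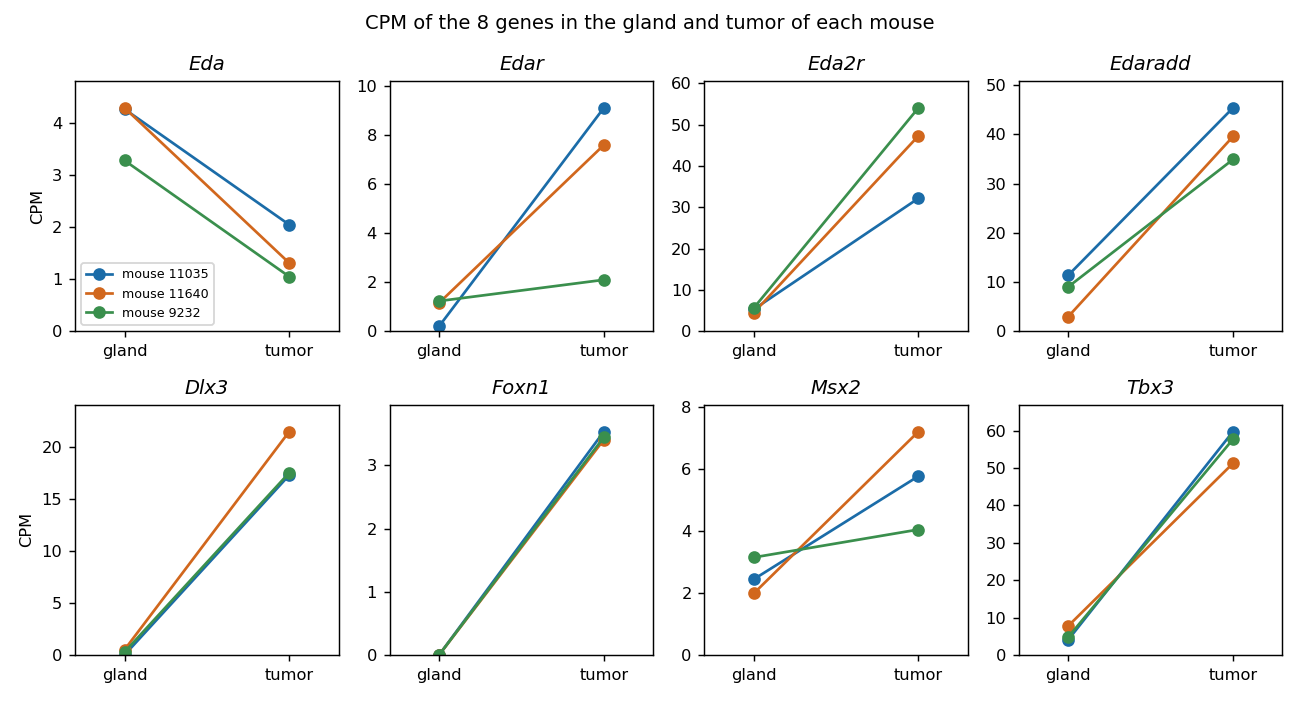
Expression in CPM (vertical axes, each starting at 0) of the 8 genes, with 1 panel per gene. Points are single libraries, and lines join the gland and the tumor of the same mouse. *Eda* falls in each mouse, from between 3.28 and 4.29 CPM to between 1.05 and 2.05 CPM, and the other genes rise. The line from M9232 to T9232 is the flattest for *Edar* and *Msx2*.

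*Eda* encodes the ligand and lies on chromosome X, from 97170945 to 97596101 (mm9, plus strand). It had 4.27, 4.29 and 3.28 CPM in M11035, M11640 and M9232 and 2.05, 1.31 and 1.05 CPM in T11035, T11640 and T9232. The lowest gland was thus above the highest tumor, at a depth of 21 to 26 fragments per gland and 7 to 11 per tumor. The mean fell 2.69-fold, from 3.95 ± 0.577 CPM (SD, n = 3) to 1.47 ± 0.517 CPM, with a log2 fold change of -1.20 (SE 0.31, adjusted p = 0.0137, limma). The log2 difference between the tissues of a mouse was -0.91 for T11035 against M11035, -1.40 for T11640 and -1.29 for T9232. Among all genes, 87.5% had a higher log2 fold change. With M9232 as the one gland, since M11035 and M11640 carried muscle transcripts, *Eda* was no longer called (log2 fold change -0.97, adjusted p = 0.167). The sums of the adipocyte markers also fell in each mouse, and their part in the fall of *Eda* was not tested.

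*Edar* encodes the receptor of the longer splice form and lies on chromosome 10, from 58063537 to 58138402 (minus strand). It had 0.203, 1.16 and 1.23 CPM in M11035, M11640 and M9232, from 1, 7 and 9 fragments. In the tumors it had 9.12 CPM in T11035, 7.60 CPM in T11640 and 2.10 CPM in T9232, from 49, 58 and 14 fragments. T9232 stood well below the other tumors: its 95% Poisson interval, which covers counting error only, was 1.15 to 3.52 CPM, against 5.77 to 9.83 CPM in T11640 and 6.75 to 12.1 CPM in T11035. The interval of T9232 overlapped those of M11640 (0.465 to 2.38 CPM) and M9232 (0.563 to 2.34 CPM). The mean rose 7.26-fold, from 0.864 ± 0.573 to 6.27 ± 3.69 CPM, with a log2 fold change of 2.22 (SE 0.56, adjusted p = 0.0134, limma). The log2 difference from the gland of the same mouse was 3.77 in T11035, 2.29 in T11640 and 0.59 in T9232, so the size of the rise differed widely between mice. Without T9232 the log2 fold change was 2.80 (adjusted p = 0.00479). Without T11035 or without T11640, *Edar* lost its call (1.86 with adjusted p = 0.0542, and 1.98 with adjusted p = 0.0616).

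*Eda2r* encodes the receptor of the shorter splice form and, like *Eda*, lies on chromosome X (94529179 to 94572555, minus strand). It had 5.29, 4.46 and 5.61 CPM in the glands M11035, M11640 and M9232 and 32.2, 47.3 and 54.1 CPM in T11035, T11640 and T9232. All tumors were far above all glands, and T9232, the lowest tumor for *Edar*, was the highest for *Eda2r*. The mean rose 8.70-fold, from 5.12 ± 0.592 to 44.5 ± 11.2 CPM, with a log2 fold change of 2.98 (SE 0.23, adjusted p = 3.1e-05, limma). The log2 differences of the 3 mice were close to each other, at 2.50 for T11035, 3.27 for T11640 and 3.16 for T9232.

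*Edaradd*, the adaptor that binds the intracellular part of EDAR, lies on chromosome 13, from 12569175 to 12612715 (minus strand). It had 11.4, 2.97 and 9.03 CPM in M11035, M11640 and M9232 and 45.4, 39.6 and 34.9 CPM in T11035, T11640 and T9232. The tumors differed little among themselves, whereas M11640 was well below the other glands. The mean rose 5.13-fold, from 7.80 ± 4.34 to 40.0 ± 5.26 CPM, with a log2 fold change of 2.46 (SE 0.41, adjusted p = 0.00184, limma). The log2 difference from the matched gland was 1.95, 3.53 and 1.89 in these tumors.

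The promoters of the ligand, the receptors and the adaptor are shown because these genes moved in opposite directions. Each window holds the 250 bases before the RefSeq start site on GRCm38.p6, a later build than the mm9 positions above, and is printed 5′ to 3′ on the strand of the gene. The windows are chrX:99975356-99975605 for *Eda* (plus strand), chr10:58675697-58675946 for *Edar*, chrX:97377210-97377459 for *Eda2r* and chr13:12520451-12520700 for *Edaradd* (all minus strand). Capitals mark a match to one of the letter patterns listed after the windows.
Eda: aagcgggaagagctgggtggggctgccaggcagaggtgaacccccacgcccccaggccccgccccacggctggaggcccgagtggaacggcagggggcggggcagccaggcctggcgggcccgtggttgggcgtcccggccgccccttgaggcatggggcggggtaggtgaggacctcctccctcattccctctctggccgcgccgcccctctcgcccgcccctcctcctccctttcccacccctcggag
Edar: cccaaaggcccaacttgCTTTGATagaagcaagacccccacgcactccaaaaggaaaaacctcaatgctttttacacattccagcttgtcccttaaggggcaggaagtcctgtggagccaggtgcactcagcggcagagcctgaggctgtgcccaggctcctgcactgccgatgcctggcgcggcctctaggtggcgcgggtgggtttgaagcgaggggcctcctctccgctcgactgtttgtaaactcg
Eda2r: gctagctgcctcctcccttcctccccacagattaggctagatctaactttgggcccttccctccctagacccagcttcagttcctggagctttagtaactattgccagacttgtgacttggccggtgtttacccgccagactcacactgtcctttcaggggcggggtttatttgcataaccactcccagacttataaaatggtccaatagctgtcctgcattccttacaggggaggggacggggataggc
Edaradd: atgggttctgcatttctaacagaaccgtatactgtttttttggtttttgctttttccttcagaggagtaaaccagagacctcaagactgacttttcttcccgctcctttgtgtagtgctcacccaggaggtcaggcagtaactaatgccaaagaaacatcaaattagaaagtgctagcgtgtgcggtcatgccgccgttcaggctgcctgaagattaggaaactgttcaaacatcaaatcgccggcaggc
Both strands were searched for TGANTCA (AP-1), TGACGTCA (CRE), CTTTGAA and CTTTGAT (TCF/LEF), and GGG followed by any 2 bases and TTTCC (NF-κB). The sole match was CTTTGAT in the *Edar* window, with its first base 233 bases before the start. Among 32851 RefSeq windows of this length, 3.21% held CTTTGAT, 4.46% CTTTGAA, 6.75% TGANTCA, 1.55% TGACGTCA and 1.41% the NF-κB pattern. The G and C content was 75.6% in the *Eda* window, 58.8% in *Edar*, 53.2% in *Eda2r* and 46% in *Edaradd*, against a median of 52.4% over all windows. RefSeq windows were given for 6 of the 8 genes, and those of *Foxn1* and *Msx2* held none of these patterns. A match describes letters in a window and not a bound site.

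*Tbx3* lies on chromosome 5 (120120678 to 120134733, plus strand) and encodes the T-box repressor whose loss causes ulnar-mammary syndrome in humans. It had 4.07, 7.76 and 4.79 CPM in M11035, M11640 and M9232 and 59.7, 51.2 and 57.7 CPM in T11035, T11640 and T9232. The tumors lay close together and far above the glands. The mean rose 10.2-fold, from 5.54 ± 1.96 to 56.2 ± 4.43 CPM, with a log2 fold change of 3.28 (SE 0.24, adjusted p = 2.31e-05, limma). Against the matched glands, the log2 differences were 3.72, 2.65 and 3.46.

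*Msx2*, a homeobox repressor that acts downstream of BMP signaling, lies on chromosome 13 (53562250 to 53568443, minus strand). It had 2.44, 1.98 and 3.15 CPM in M11035, M11640 and M9232 and 5.77, 7.21 and 4.05 CPM in T11035, T11640 and T9232. The groups did not overlap, but T9232 was only a little above M9232. The mean rose 2.25-fold, from 2.52 ± 0.586 to 5.67 ± 1.58 CPM, with a log2 fold change of 1.02 (SE 0.30, adjusted p = 0.0253, limma). Against the matched glands, the log2 difference was 1.09 in T11035, 1.63 in T11640 and 0.32 in T9232. This was the weakest rise of the set: 15.3% of all genes had a higher log2 fold change, and the call was lost when M11035, M11640, T11035 or T11640 was left out, with log2 fold changes down to 0.84 and adjusted p up to 0.109 (limma).

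*Dlx3*, a distal-less homeobox gene on chromosome 11 (94981403 to 94986610, plus strand), had 0, 3 and 2 fragments in M11035, M11640 and M9232, which is at or under the floor. In T11035, T11640 and T9232 it had 17.3, 21.5 and 17.5 CPM, from 93, 164 and 117 fragments. Tumor expression was at least 37.2-fold higher than a floor of 3 fragments per gland library. The log2 fold change of the fit, which for such a gene depends on the pseudocount, was 4.72 (SE 0.32, adjusted p = 1.49e-05, limma).

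*Foxn1*, the forkhead gene mutated in nude mice, lies on chromosome 11 (78171079 to 78200060, minus strand) and had no fragment in any gland. In the tumors it had 3.54, 3.41 and 3.45 CPM, from 19 fragments in T11035, 26 in T11640 and 23 in T9232. Their SD was 0.0656 CPM, although the 95% Poisson interval of a single library was much wider, such as 2.13 to 5.52 CPM in T11035. Tumor expression was at least 6.85-fold higher than a floor of 3 fragments per gland library. The fit gave a log2 fold change of 2.99 (SE 0.32, adjusted p = 1.49e-04, limma).

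The exons of the 8 genes overlapped no other gene of the table in the mm9 annotation, and no other gene had a transcript at least 95% identical over at least 500 bp.

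**Figure D2:**
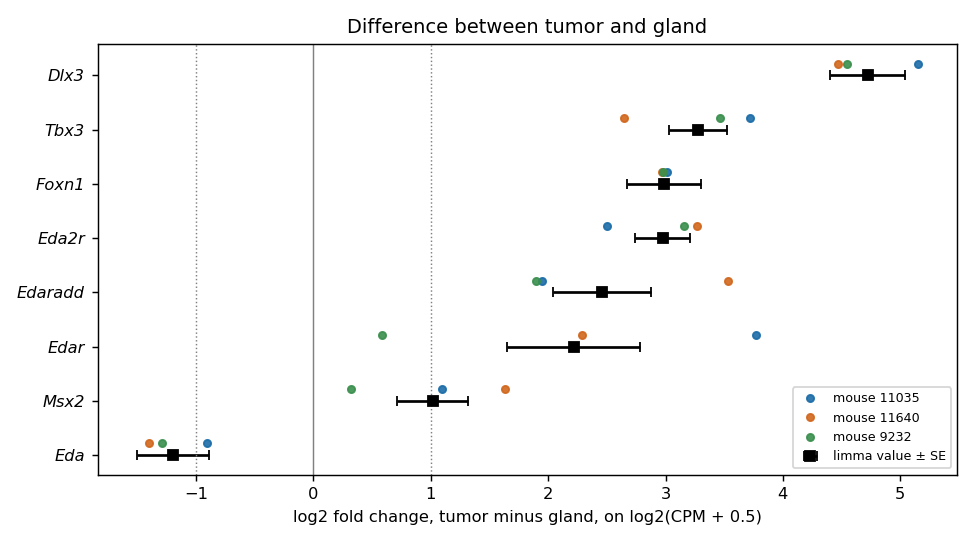
Log2 fold change of tumor against normal gland (horizontal axis, on CPM + 0.5) for the 8 genes. Black squares with bars are limma values with their standard errors, colored points are the differences within the 3 mice, and dotted lines mark a log2 fold change of 1 in either direction. *Dlx3* (4.72) and *Tbx3* (3.28) lie farthest to the right and *Eda* (-1.20) is the one gene left of 0. The points of *Edar* spread most, from 0.59 to 3.77.

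Levels of different genes were compared per kb of exon. In the tumors, *Edaradd* was highest at 16.6 CPM per kb (range 14.5 to 18.9), followed by *Tbx3* at 10.5 (9.55 to 11.1), *Eda2r* at 7.56 (5.46 to 9.18) and *Dlx3* at 7.12 (6.56 to 8.15). *Eda2r* and *Dlx3* overlapped, and so did *Msx2* at 2.31 CPM per kb (1.65 to 2.93) and *Edar* at 1.72 (0.577 to 2.51). *Edar* in turn overlapped *Foxn1* at 1.08 (1.06 to 1.10), and *Eda* was lowest at 0.215 CPM per kb (0.154 to 0.300). In the glands, *Edaradd* also had the highest mean, 3.25 CPM per kb (1.24 to 4.74), but its range overlapped those of *Tbx3* at 1.03 (0.758 to 1.45) and *Msx2* at 1.03 (0.807 to 1.28). *Eda2r* at 0.869 CPM per kb (0.757 to 0.952) overlapped both of these, *Eda* followed at 0.579 (0.481 to 0.629) and *Edar* at 0.237 (0.0559 to 0.338). *Dlx3* was at 0.0972 CPM per kb (0 to 0.188), and *Foxn1* was at 0. With the length of the longest transcript in place of all exons, *Eda2r* spanned 6.77 to 11.4 CPM per kb in the tumors and overlapped *Tbx3* (10.3 to 12.0).

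The ratio of ligand to receptor RNA was lower in each tumor than in each gland. Per length, *Eda* amounted to 0.656, 0.585 and 0.373 of the summed receptors in M11035, M11640 and M9232 and to 0.0376, 0.0190 and 0.0157 in T11035, T11640 and T9232. *Edar* made up 5.86%, 29.6% and 26.2% of both receptors in M11035, M11640 and M9232. In the tumors its share was 31.4% in T11035, 20.7% in T11640 and 5.91% in T9232, so the shares of the tissues overlapped, and the share in M11035 rests on 1 fragment. These ratios are descriptions of RNA and were not tested.

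**Figure D3:**
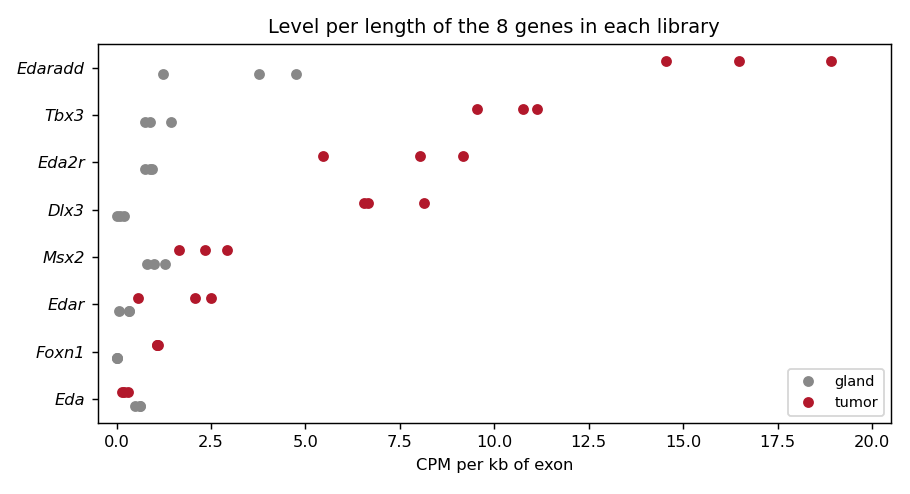
Level of the 8 genes per kb of exon (horizontal axis, CPM per kb), with 1 point per library, glands in grey and tumors in red. The genes are ordered by their tumor mean. *Edaradd* leads in the tumors with 14.5 to 18.9 CPM per kb, and *Eda* is the one gene whose tumor points lie below its gland points.

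The other genes of the pathway were taken from lists compiled by hand, with earlier results of these data known. The relay from EDAR to NF-κB holds TRAF, TAB, IKK and NF-κB genes. Of its 18 genes, 0 were called higher by limma and 3 lower, with a median log2 fold change of -0.02 against -0.0028 over all genes. The shares over all genes, 14.5% called higher and 13.7% called lower, are the background for this list and the lists below. The 3 that fell were *Traf1* (33.8 ± 13.2 to 9.44 ± 3.43 CPM, -1.77 on the log2 scale, adjusted p = 0.0047, limma), *Traf5* (-1.41) and *Cyld* (-1.03), which removes ubiquitin chains from relay proteins. *Traf5* and *Cyld* are named after their values were seen. Lymphocyte markers fell beside these genes, with 7 of 7 for T cells (sums of 184 to 467 CPM in the glands and 28.1 to 47.7 CPM in the tumors) and 6 of 6 for B cells (146 to 368 CPM and 3.30 to 5.02 CPM), and their part in the result was not tested. The highest log2 fold change was that of *Nfkbia*, the NF-κB inhibitor, at 0.77 (adjusted p = 0.0409, limma), which was under the fold threshold. None of the 18 genes was called higher under any of the 15 alternatives, edgeR and DESeq2 included. The 2 higher genes with an unadjusted limma p under 0.05 were *Nfkbia* and *Map3k7* (0.40, adjusted p = 0.0289, limma). *Ikbkg* (-0.54, adjusted p = 0.0119, limma) and *Ikbkb* (-0.56, adjusted p = 0.0405, limma) were lower, also under the fold threshold. *Map3k7*, *Ikbkg* and *Ikbkb* are named after their values were seen.

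Of the genes listed as EDAR targets, 14 of 16 were in the table, and 8 rose and 0 fell, with a median log2 fold change of 1.65. Of the 14, 9 had 10 fragments in the glands alone, and 4 of these 9 rose. The other 5 passed the filter only with the fragments of the tumors. This favors genes that are higher there, and 4 of the 5 are among the rises. *Epgn*, an EGF family ligand, had 2, 1 and 0 fragments in M11035, M11640 and M9232 and exceeded the floor of the glands at least 55.8-fold in the tumors. *Shh*, the Hedgehog ligand of hair placodes, had 0, 1 and 2 fragments in these glands and 8.75, 12.1 and 3.30 CPM in T11035, T11640 and T9232, at least 15.9-fold higher. *Wnt10a* rose at least 7.09-fold, and *Wnt10b*, *Pthlh*, *Areg*, *Ctgf* and *Cxcl10* also rose, these 5 named after their values were seen. *Ltb* (lymphotoxin beta) had the lowest log2 fold change, -1.30, and missed the threshold (adjusted p = 0.0598, limma), although it was called lower under 4 of the 15 alternatives, among them edgeR and DESeq2 on the fragments. *Dkk4* and *Madcam1* were not analysed here.

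Of 20 placode and mammary bud signals in the table, 9 rose and 2 fell, with a median log2 fold change of 0.97. *Shh*, *Wnt10b*, *Pthlh*, *Foxi3* and *Sostdc1* are also in the list of EDAR targets, so their results are counted again here. The glands alone had 10 fragments for 17 of the 20, of which 7 rose and 2 fell, and the other 3, *Shh* among them, passed the filter through the tumors. *Dkk1*, a secreted Wnt inhibitor, rose most, from 0.554 ± 0.343 to 120 ± 37.6 CPM (6.84 on the log2 scale, adjusted p = 3.42e-06, limma). The largest fall was that of *Fgf10*, a growth factor that mesenchyme sends to epithelium, from 59.4 ± 31.3 to 12.9 ± 3.40 CPM (-2.06, adjusted p = 0.0021, limma). *Pth1r*, the receptor of *Pthlh*, was the other gene that fell (-1.02, adjusted p = 0.0434, limma), and is named after its values were seen. Its call was lost under 10 of the 15 alternatives, among them DESeq2, the replicate block (adjusted p = 0.0577) and leaving out M11035, M11640 or any 1 of the tumors, with a log2 fold change of -0.74 and an adjusted p of 0.142 (limma) without M11640. As for *Edar*, T9232 was the lowest tumor for 14 of the 20 genes, *Shh* and *Bmp2* among them. Other lists differed: this held for 6 of 8 inner root sheath genes, 6 of 14 EDAR targets and 5 of 15 hair follicle transcription factors. It held for 3 of 13 hair shaft keratins and 1 of 18 relay genes. The share over all genes was not computed.

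Of 15 hair follicle transcription factors in the table, 8 rose and 0 fell, with a median log2 fold change of 1.16. *Lef1*, *Sox9* and *Gata3* are also among the placode and mammary bud signals. The glands alone had 10 fragments for 14 of the 15, of which 7 rose. *Ovol1*, a zinc finger gene of differentiating epidermis, had the highest log2 fold change in this fit and went from 0.814 ± 0.420 to 35.0 ± 8.83 CPM (4.78, adjusted p = 1.65e-05, limma). *Lef1* had the lowest log2 fold change (-0.63, adjusted p = 0.318, limma). Its level was 25.8 CPM in M11035, 6.61 CPM in M11640 and 7.52 CPM in M9232, and 5.54 to 8.75 CPM in the tumors. *Hoxc13*, a regulator of hair keratin genes, was at 0 in the glands and had 0.186, 3.67 and 1.35 CPM in T11035, T11640 and T9232. Its call (adjusted p = 0.0476, limma) was lost in the fit with the replicate block, which pairs the libraries of a mouse (adjusted p = 0.0505), and under 9 alternatives in all.

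**Figure D4:**
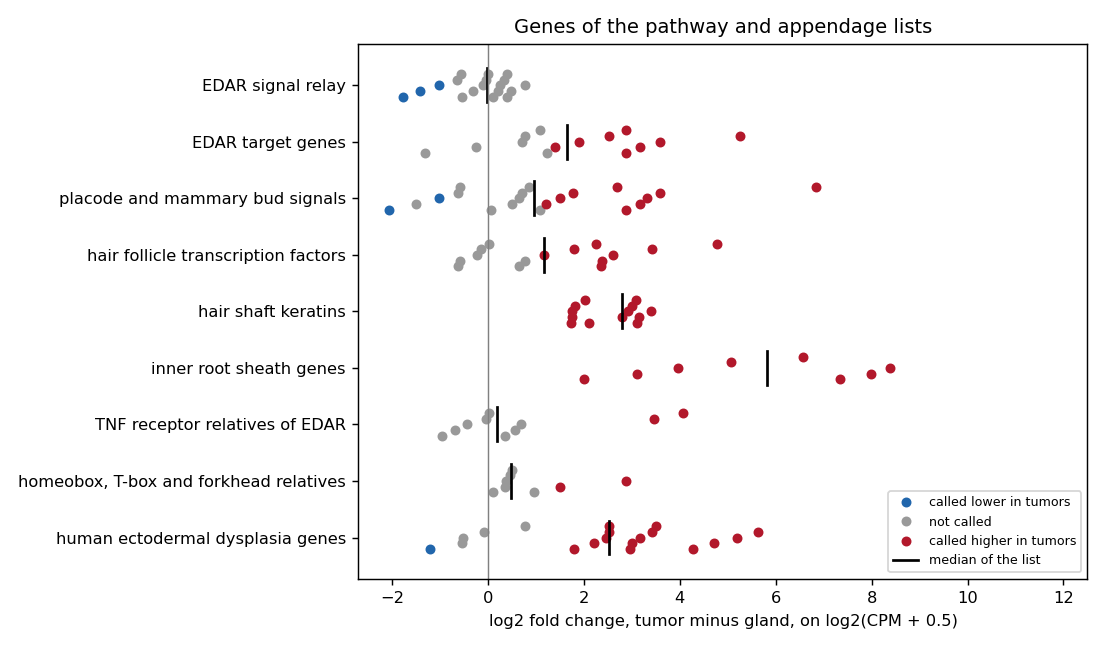
Log2 fold change of tumor against normal gland (horizontal axis) for each gene of the hand-compiled lists (rows), where points are genes, red where called higher in tumors, blue where called lower and grey where not called, and a bar marks the median of each list. The relay genes sit around 0 (median -0.02), while the inner root sheath genes lie farthest to the right (median 5.83).

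Genes of the hair itself were read beside *Foxn1*, *Dlx3* and *Msx2*, whose products act in the follicle. Of 13 hair shaft keratins, 13 rose, and in none of them did the glands alone reach 10 fragments. Each thus passed the filter only with the fragments of the tumors, which favors genes that are higher there. The summed level was 0.684 to 0.826 CPM in the glands and 20.3, 87.5 and 32.1 CPM in T11035, T11640 and T9232, and each of the 13 was highest in T11640. Examples are *Krt33a*, with a tumor mean at least 11.9-fold above the floor of the glands, and *Krt36*, with a tumor mean at least 6.16-fold above it. *Krt36* had 1.86, 6.42 and 1.05 CPM in T11035, T11640 and T9232, so its mean rests largely on T11640. Its call was lost under 6 of the 15 alternatives, while *Krt33a* kept its call under all 15. Since all 13 were at the floor in the glands, the order of their fitted fold changes depends on the pseudocount and is not given. With M9232 as the one gland, 5 of the 13 were called, and 5 of the 15 hair follicle transcription factors were called higher and 1 lower.

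Of 8 inner root sheath genes in the table, 8 rose, and 2 of these had 10 fragments in the glands alone. Their summed level was 2.74 to 7.32 CPM in the glands and 1333, 2144 and 1032 CPM in T11035, T11640 and T9232. *Tchh* (trichohyalin, which hardens the inner root sheath) went up from 2.82 ± 1.99 to 1027 ± 391 CPM, or by 8.37 on the log2 scale (adjusted p = 3.31e-06, limma). *Krt25*, an inner root sheath keratin, had 1 fragment in all 3 glands together with tumor levels at least 177-fold higher, and *Krt28* was at least 6.42-fold higher.

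**Figure D5:**
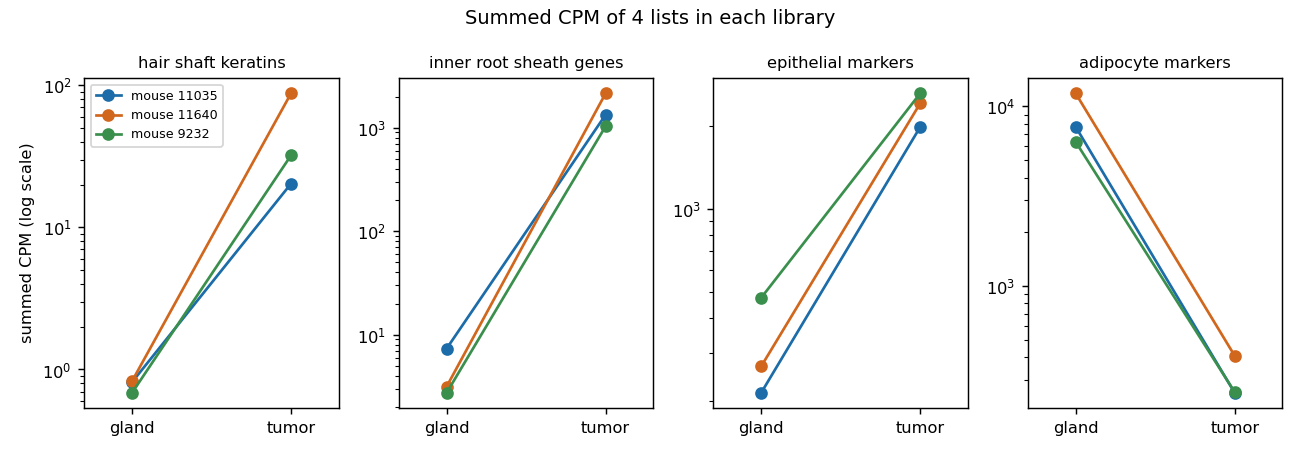
Summed CPM (log axis) of the hair shaft keratins, the inner root sheath genes, the epithelial markers and the adipocyte markers in the 6 libraries, with lines joining the gland and the tumor of a mouse. The hair shaft keratins reach 87.5 CPM in T11640, and the adipocyte markers run the opposite way to the other 3 lists.

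Among relatives of EDAR in the TNF receptor family, 2 of 10 rose and 0 fell, with a median log2 fold change of 0.20. Over all genes, 14.5% were called higher and 13.7% lower. *Tnfrsf19* (also called TROY), which acts beside EDAR in hair placodes, rose from 5.03 ± 2.34 to 92.8 ± 38.0 CPM (4.06, adjusted p = 7.18e-05, limma). Its tumor values were 128 CPM in T11035, 98.4 CPM in T11640 and 52.3 CPM in T9232, the same order as for *Edar*. *Ngfr*, named after its values were seen, rose too (3.46). *Cd40* had the lowest log2 fold change, -0.95, under the fold threshold (adjusted p = 0.0237, limma), and was called lower under 4 of the 15 alternatives.

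Of 15 homeobox, T-box and forkhead relatives of the transcription factors, 8 were in the table and 2 rose, with a median log2 fold change of 0.48. The share of all genes called higher was 14.5%. The glands alone had 10 fragments for 6 of the 8, and 0 of these 6 were called by limma, edgeR or DESeq2. Of these 6, 3 had an unadjusted limma p under 0.05, and 1 was called without M11640 and 1 without T9232. *Tbx18* (0.96, adjusted p = 0.0092, limma) and *Foxn2* (0.38, adjusted p = 0.0452, limma) were higher in the tumors but under the fold threshold. These 2 are named after their values were seen. Both genes that rose passed the filter only with the fragments of the tumors, which favors genes that are higher there. *Dlx5* had 1 fragment in all 3 glands together with tumor levels at least 7.09-fold higher, and *Dlx4* was at least 3.38-fold higher. Without T11640, 1 of the 8 was called. *Tbx15*, at 47.2 ± 15.7 CPM in the glands and 48.7 ± 5.52 CPM in the tumors, had the lowest log2 fold change, 0.10 (adjusted p = 0.788, limma), which turned to -0.21 without M9232. Of 19 genes of human ectodermal dysplasias in the table, 14 rose and 1 fell, with a median of 2.53. This list holds *Eda*, *Edar*, *Edaradd* and *Dlx3*, so their results above are counted again in it. It also shares *Wnt10a*, *Trp63*, *Ikbkg*, *Nfkbia*, *Krt85* and *Hoxc13* with lists above. The glands alone had 10 fragments for 15 of the 19, of which 10 rose and 1 fell. The other 4, *Wnt10a*, *Dlx3*, *Krt85* and *Hoxc13*, passed the filter only with the fragments of the tumors, which favors genes that are higher there. *Dsp* (desmoplakin, of cell junctions) rose most, from 36.0 ± 12.3 to 1758 ± 327 CPM (5.62, adjusted p = 1.9e-06, limma), and the gene that fell was *Eda* itself.

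Most epithelial markers and all squamous markers rose together with the receptors, the adaptor, the transcription factors and the hair genes. Their sums are given above, and their part in these results was not tested. Markers of the dermal papilla, the mesenchyme of the follicle, summed to 68.9 to 93.6 CPM in the glands and 112 to 122 CPM in the tumors, and 2 of 6 rose. Sebaceous gland markers summed to 85.1 to 125 CPM in the glands and 159 to 207 CPM in the tumors, but 1 of 4 rose and 3 fell, and *Mc5r* was at 0 in the tumors. Melanocyte markers, at 26.8 to 45.1 CPM in the glands and 28.7 to 35.9 CPM in the tumors, had 0 of 3 called by limma, edgeR or DESeq2 and 0 with an unadjusted limma p under 0.05, and the other 3 listed were not analysed here. Fibroblast markers rose in 3 of 7 and fell in 1, from sums of 762 to 3190 CPM to sums of 5599 to 6109 CPM. Of the hormone-sensing luminal markers, which summed to 335 to 526 CPM in the glands and 80.9 to 157 CPM in the tumors, 2 of 7 rose and 4 fell. Contractile markers fell in 3 of 6, from sums of 353 to 744 CPM to sums of 194 to 239 CPM, and endothelial markers fell in 3 of 6, from sums of 357 to 486 CPM to sums of 202 to 290 CPM. Macrophage markers fell in 1 of 6, with sums of 245 to 841 CPM in the glands and 401 to 642 CPM in the tumors.

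The genes whose pattern over the 6 libraries was most like that of 3 of the members were sought among the 11401 genes whose mean reached 5 CPM. For *Eda* these were *Exd2* (Pearson r = 0.999), *Pm20d2* (0.997) and *AU041133* (0.996). For *Edar* they were *Ccdc122* (0.995), *Tada2a* (0.995) and *Cxadr* (0.990), a junction protein that is the receptor of coxsackieviruses and had 325, 273 and 145 CPM in T11035, T11640 and T9232. For *Tbx3* they were *Rnd3*, *Kdelr3* (0.999) and *Rc3h2* (0.999). With 6 libraries in 2 tissues and this many genes, correlations of this size are a description of the patterns alone.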

How the data were processed

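RNA-Seq was performed on 3 tumors and 3 matched glands. According to the methods and the submitters' processing notes, reads were demultiplexed with CASAVA 1.8.2, mapped to mm9 with TopHat2 2.0.3, counted per RefSeq gene with HTSeq 0.5.3p9 and normalized with edgeR 3.6.1. The authors deposited an expression signal for each gene, in CPM on edgeR's effective library size, after removing genes with fewer than 10 fragments in all. RNA was amplified before sequencing, and amplified copies are not independent molecules, so intervals and floors cover counting error only. Columns sum to between 952151 and 1041170 CPM. Dividing by the value of 1 fragment gave whole numbers (tolerance 0.01) for 100% of the values of each library.

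Groups and mouse numbers were taken from the labels. The test was limma 3.58.1 (R 4.3.3) with trended variance and no mouse term, applied to log2 values after adding 0.5 CPM. Design and test had been planned for CPM, and the unit was recorded as a signal because the columns do not share 1 total, which leaves the test as it was. Means and SDs are of CPM over 3 libraries. Libraries of 1 number come from the same animal, so the numbers pair them; over 14712 genes, deviations from the tissue means correlated within a mouse with r = 0.107 (T11035), 0.151 (T11640) and 0.0168 (T9232). No library was a copy of another, with a chi-square per degree of freedom of at least 13.0 within a tissue.

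The genes, lists and markers were chosen with earlier results of these data known. Named are the listed genes, the highest and lowest gene of each list (mean of 1 CPM or more), called genes of a list at or under 3 fragments in every library of a tissue, the 3 genes most like *Eda*, *Edar* and *Tbx3*, and *Atf3*. Of the hair shaft and inner root sheath keratins that this rule names, the text gives those with the highest and lowest log2 fold change, and *Krt25*. Alternatives were other pseudocounts, a filter, the replicate block, edgeR 4.0.16, DESeq2 1.42.0, plain totals, quantile normalization and leaving out each library. Leaving out M11035 and M11640 together was added after seeing the data. Positions are from GENCODE vM1 (mm9), promoters from RefSeq (GRCm38.p6), and near-identical transcripts were searched with BLAST 2.17.0. The script was tested on simulated data. The authors' microarray and knockdown experiments were not used here.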

Additional observations from a re-analysis of the deposited data

How the results depend on the processing

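*Edaradd*, *Eda2r*, *Foxn1*, *Dlx3* and *Tbx3* kept their calls under all 15 alternatives, with log2 fold changes of 1.92 to 2.81, 2.82 to 3.19, 2.16 to 7.46, 3.99 to 6.11 and 3.10 to 3.53. With M11035 and M11640 both left out, which was chosen after seeing the data, 5 of the 8 genes were called, and the log2 fold changes of *Eda*, *Edar* and *Msx2* were -0.97, 1.76 and 0.73 (adjusted p = 0.167, 0.172 and 0.258, limma). This fit rests on 1 gland, which is assumed to vary like the tumors. With pseudocount 1, *Msx2* fell under the fold threshold at 0.91. The numbers of mice pair the libraries, and the fit with the replicate block called 4298 genes, 4194 of them shared with the 4309 of the fit without it, and changed no call of the 8 genes. Leaving out 1 library at a time gave 3774 to 4374 called genes and log2 fold changes of 1.79 to 2.80 for *Edar*, 0.84 to 1.22 for *Msx2* and -0.21 to 0.27 for *Tbx15*, which turned negative without M9232.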
